A study of Mus musculus with 2 samples.

Results

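The Kruppel-like factors (KLFs) described here are Klf2, Klf3, Klf4, Klf5, Klf6, Klf9, Klf10, Klf11, Klf13 and Klf15. They were found by matching the Ensembl mouse gene identifiers of the count and FPKM tables to these symbols, which gave 10 of the 55573 listed genes. The tables held 7 further KLF genes, used here for comparison. Gene expression was measured by RNA-seq of poly(A) RNA in mesenteric arteries, the vessels that supply the intestine, to ask which transcripts differ when arterial smooth muscle is depolarized by high external K+. One library came from control arteries in 5 mM K+ solution and the other from arteries in 60 mM K+ solution, with 60 min stated for each. Both libraries came from wild type C57BL/6 mice aged 10 weeks, and each was made from tissue of 2 mice, so neither was an individual animal. The perfusion method of the study takes the control from the distal segment after an incubation without perfusion. High K+ is then perfused through the remaining segment. Segment, perfusion flow, time since dissection and K+ therefore cannot be told apart if the RNA-seq arteries were prepared in this way. Elsewhere the study describes both groups as perfused. Each condition had 1 library, so differences are given without p-values and without replicate error. Since whole arteries were measured, more cells of a type and more RNA per cell cannot be told apart.

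KLFs are transcription factors that bind GC-rich DNA, such as CACCC and GC boxes, through 3 C2H2 zinc fingers at the carboxyl end of the protein. Their other parts differ and divide the family. Klf2, Klf4, Klf5 and Klf6 carry activation domains and can recruit acetyltransferases, Klf3 recruits the co-repressor CtBP, and Klf9, Klf10, Klf11 and Klf13 recruit the Sin3 co-repressor complex. In the vessel wall, Klf2 and Klf4 are known from endothelium under laminar flow, where the MEK5-ERK5-MEF2 pathway drives them, and Klf4 is also known from smooth muscle cells that lose contractile proteins. This division was applied with the values already known.

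The sequences in front of the best known members are shown first, because the study concerns transcription driven by CREB, which binds the CRE sequence TGACGTCA and, more weakly, its core TGACG. RefSeq promoter windows (250 bases before and 50 bases after the start, GRCm38.p6) were given for 8 of the 10 members. Klf5 and Klf10 had no entry. Each window was matched exactly on its own chromosome in NCBIM37 (mm9), with no second match on the same strand. Other chromosomes were not searched, and the coordinates below are of that build. The 250 upstream bases are printed 5′ to 3′ on the strand of the gene. They end just before the GENCODE vM1 start of Klf4, Klf6 and Klf9, whereas the vM1 start of Klf2, base 74842932, lies inside its printed stretch. Whether they overlap other genes was not checked. Capitals mark CRE cores on either strand and, in Klf2, the MEF2 site. Klf2, Klf4 and Klf6 are shown as the 3 most abundant members with more reads in 60 mM K+, and Klf9 as the abundant member without this difference.
Klf2 (chr8:74842711-74842960, plus strand): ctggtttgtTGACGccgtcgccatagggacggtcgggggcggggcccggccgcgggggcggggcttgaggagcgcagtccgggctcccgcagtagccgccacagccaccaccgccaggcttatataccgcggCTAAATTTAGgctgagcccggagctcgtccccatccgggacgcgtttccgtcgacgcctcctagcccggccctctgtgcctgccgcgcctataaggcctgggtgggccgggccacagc
Klf4 (chr4:55545348-55545597, minus strand): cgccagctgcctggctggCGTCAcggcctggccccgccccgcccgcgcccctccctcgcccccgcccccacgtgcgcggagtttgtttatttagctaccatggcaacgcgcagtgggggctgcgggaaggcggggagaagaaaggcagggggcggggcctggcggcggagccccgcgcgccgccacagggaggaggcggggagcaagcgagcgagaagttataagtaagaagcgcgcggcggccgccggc
Klf6 (chr13:5860485-5860734, plus strand): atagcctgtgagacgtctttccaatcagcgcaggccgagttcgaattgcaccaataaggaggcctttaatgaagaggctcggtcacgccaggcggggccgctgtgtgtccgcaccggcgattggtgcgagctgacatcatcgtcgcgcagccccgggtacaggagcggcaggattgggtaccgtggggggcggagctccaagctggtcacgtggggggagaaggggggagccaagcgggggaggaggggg
Klf9 (chr19:23215466-23215715, plus strand): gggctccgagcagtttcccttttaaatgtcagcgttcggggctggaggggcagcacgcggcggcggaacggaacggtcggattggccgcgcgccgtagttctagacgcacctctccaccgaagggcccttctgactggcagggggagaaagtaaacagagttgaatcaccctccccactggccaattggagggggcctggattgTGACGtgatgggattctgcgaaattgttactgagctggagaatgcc

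The full CRE was in 0 of the 8 member windows and in 1.79% of all 32851 windows. The core was in 6 of 8 member windows, Klf2, Klf3, Klf4, Klf9, Klf13 and Klf15, against 20.8% of all windows. Counting bases before the start as negative, it lay at -241 to -237 in Klf2 and at -232 to -228 in Klf4, far from the start, and at -46 to -42 in Klf9. Klf15 held 2 cores. Klf6 and Klf11 held none, so members with higher and with lower values in 60 mM K+ were found on both sides of this division. Of the 8 windows, the MEF2 site was found in that of Klf2 alone, at -118 to -109, and in 3.19% of all windows.

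Sequences that KLFs themselves bind were searched for as well. The GC box GGGCGG was in 7 of 8 member windows, all but Klf9, against 35.7% of all windows. The CACCC box was in 5 of 8, a share near the 57.5% of all windows. The E-box CACGTG, bound by clock and Myc-type factors, was in 4 of 8 (Klf4, Klf6, Klf11 and Klf15) against 7.15% of all windows. The glucocorticoid receptor core sequence TGTTCT (19.0% of all windows), the kappaB site (8.46%), the CArG box of serum response factor (1.63%) and the TATAAA sequence (13.6%) were in 0 of 8. Both strands were searched, every full CRE also holds the core, and GC boxes may overlap CACCC boxes. Member windows were 63.0 to 77.7% G and C, against a median of 52.7% over all windows, and held 23 to 47 CG steps against a median of 7. The matches are given as a description of the letters, and member windows were not compared with windows of like composition.

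The KLFs ranged from abundant to nearly absent in the artery. Levels are deposited FPKM values, fragments scaled by transcript length and by library size, which the authors took as total reads. Klf4 had 427 FPKM in 5 mM K+ and 547 FPKM in 60 mM K+, from 6576 and 9073 reads. Klf2 had 274 and 445 FPKM, from 5303 and 9275 reads. These levels placed Klf4 at rank 204 and Klf2 at rank 356 of all listed genes in 5 mM K+, and at ranks 177 and 222 in 60 mM K+. Together, Klf2 and Klf4 made up 57.4% of the summed FPKM of the 17 KLF genes in 5 mM K+ and 65.9% in 60 mM K+. All 10 members made up 97.7% and 98.7%.

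**Figure D1:**
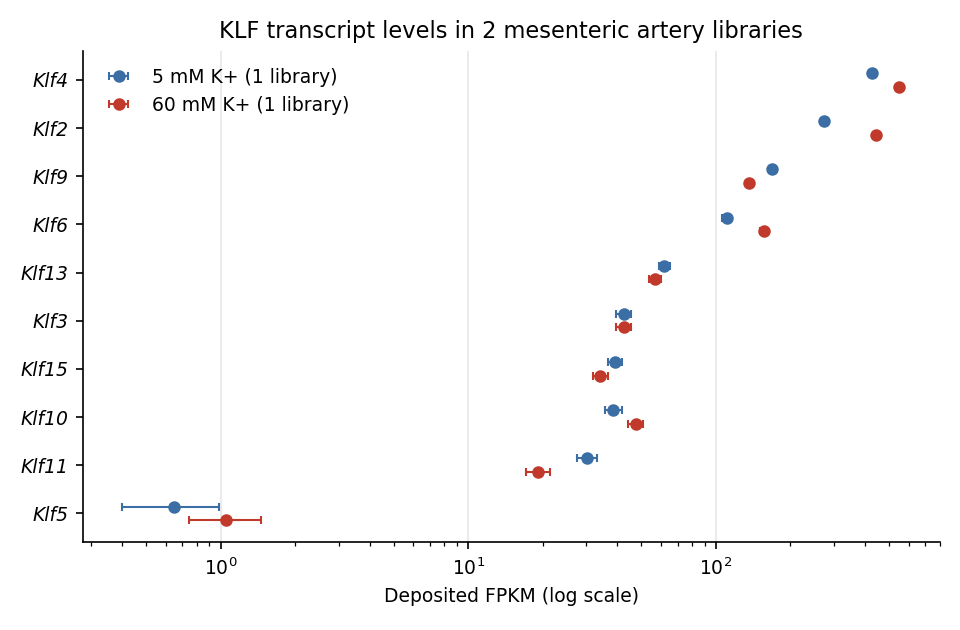
Deposited FPKM (log scale) of the 10 KLF members in the 5 mM K+ (blue) and 60 mM K+ (red) libraries, 1 library each. Bars are 95% counting intervals of that library, and where none is visible it is narrower than the point. Levels ran from 0.646 FPKM for Klf5 to 427 FPKM for Klf4 in 5 mM K+, and Klf6 and Klf9 changed places between the libraries at the lengths behind these values.

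In 5 mM K+, the order of FPKM was Klf4, Klf2, Klf9, Klf6, Klf13, Klf3, Klf15, Klf10, Klf11 and Klf5. Neighbours in this order had separate counting intervals except Klf3 and Klf15 (42.4 and 39.1 FPKM) and Klf15 and Klf10 (38.5 FPKM). In 60 mM K+, Klf6 at 156 FPKM stood above Klf9 at 137 FPKM, and Klf10 at 47.5 FPKM stood beside Klf3 at 42.4 FPKM with overlapping intervals, while the other neighbours in 60 mM K+ were separate. The order rested on the gene lengths behind the FPKM values. The length used for Klf4 was 1.47 kb, whereas its GENCODE vM1 transcript is 3040 bases, and for Klf2 both were 1.85 kb. With vM1 lengths, Klf2 stood above Klf4 in both libraries (274 against 206 in 5 mM K+ and 445 against 264 in 60 mM K+), Klf9 stood above Klf6 in both, and 6 of 10 members kept their place in 5 mM K+ and 2 of 10 in 60 mM K+. The difference of one gene between libraries does not depend on its length.

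Differences between the libraries are given as log2(fold-change) of 60 mM K+ over 5 mM K+ of read counts scaled with TMM factors (trimmed mean of M-values, edgeR). The 95% Clopper-Pearson interval beside each value reflects counting error and no other. A gene was called past the fold when log2(fold-change) was above 1 or below -1 and it had at least 10 reads in both libraries together, which 14829 genes had (the tested genes). None of the 10 members was past the fold in either direction, against 5.54% of tested genes higher and 5.86% lower. At 1.5-fold, 3 of 10 members were higher, Klf2, Klf5 and Klf6, against 11.9% of tested genes, and 0 of 10 were lower, against 13.1%. Among the 6549 genes with at least 500 reads, where 9 members lay, 2 were above 1.5-fold, against 8.89%, and 0 were below it, against 1.71%. The counting interval lay above 0 for 6 of 10 members, against 25.0% of tested genes, and below 0 for 2, against 20.3%. Intervals are narrower with more reads, and members had more reads than most tested genes, so these shares are not of like depth. The median log2(fold-change) was 0.36 over the 10 members, 0.00 over all tested genes and 0.08 over genes with at least 500 reads. Scaling by total counts lowered every log2(fold-change) by 0.21. The median of the members was then 0.15, and 6 in place of 8 were positive.

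The activator group had mostly higher values in 60 mM K+. Of its 5 genes with at least 10 reads, 4 (all members) had a counting interval above 0 and 1 (Klf7) below 0, with a median log2(fold-change) of 0.70. Klf2, which in endothelium raises nitric oxide synthase and anticoagulant genes, had 1.88 times the scaled reads in 60 mM K+, a log2(fold-change) of 0.91 with a counting interval of 0.86 to 0.96, and 6.54% of tested genes had a higher value. For Klf6, an early response gene induced in injured vessels, 2371 reads (111 FPKM) were counted in 5 mM K+ and 3602 reads (156 FPKM) in 60 mM K+. The log2(fold-change) of Klf6 was 0.70 (0.63 to 0.78), and 9.18% of tested genes had a higher value. For Klf4, log2(fold-change) was 0.57 (0.52 to 0.61), a ratio of 1.48, with 12.4% of tested genes higher. All 3 remained positive with total counts, at 0.70 for Klf2, 0.50 for Klf6 and 0.36 for Klf4.

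Klf5, which is known to drive smooth muscle growth after injury, was close to the limit of this depth. It had 21 reads (0.646 FPKM) in 5 mM K+ and 37 reads (1.06 FPKM) in 60 mM K+. The log2(fold-change) of Klf5, 0.92, was as high as that of Klf2, but the counting interval ran from 0.11 to 1.77. Of the 7 KLF genes outside the 10, 4 had at least 10 reads, 0 of these were past the fold, and all 4 values were negative, from -0.73 to -0.07 with a median of -0.30. One of them, Klf7 of the activator group, had 330 reads in 5 mM K+ and 236 in 60 mM K+, with a log2(fold-change) of -0.38 (-0.63 to -0.14). Klf1, the erythroid member, had 0 reads in both libraries. The activator group made up 67.3% of the summed KLF FPKM in 5 mM K+ and 76.7% in 60 mM K+.

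**Figure D2:**
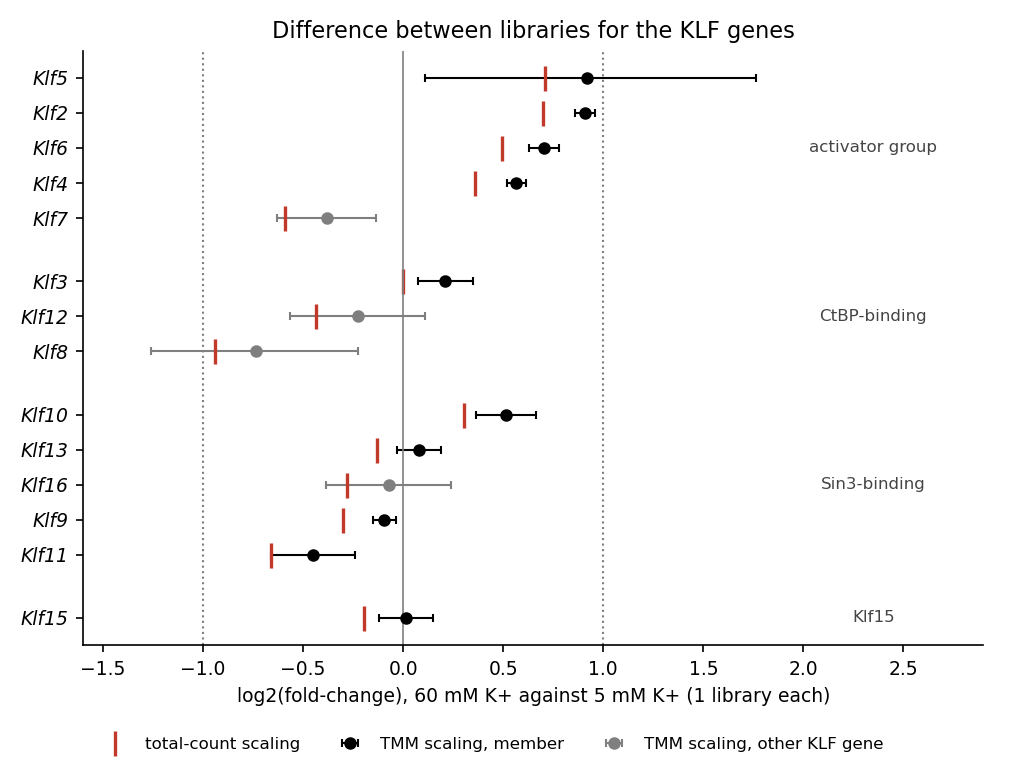
log2(fold-change) of 60 mM K+ over 5 mM K+ for the 14 KLF genes with at least 10 reads, by co-factor group. Points with 95% counting intervals are TMM-scaled (black for the 10 members, grey for other KLF genes), red ticks are scaled by total counts, and dotted lines mark 2-fold. Klf2, Klf4, Klf5, Klf6 and Klf10 lie right of 0 under both scalings, Klf7, Klf8, Klf9, Klf11, Klf12 and Klf16 lie left of it under both, Klf3 lies at 0.00 with total counts, and Klf13 and Klf15 change side.

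The Sin3-binding group was divided, with a counting interval above 0 for 1 of 5 genes and below 0 for 2. Klf10, first described as a TGF-beta-inducible early gene, had 639 reads (38.5 FPKM) in 5 mM K+ and 849 reads (47.5 FPKM) in 60 mM K+. The log2(fold-change) of Klf10 was 0.51 (0.36 to 0.66), with 14.4% of tested genes higher. Its close relative Klf11, also known as a TGF-beta-inducible gene, had 460 reads (30.2 FPKM) in 5 mM K+ and 314 reads (19.2 FPKM) in 60 mM K+. The log2(fold-change) of Klf11 was -0.45 (-0.66 to -0.24), with 18.3% of tested genes lower. The FPKM of Klf10 was 1.27 times that of Klf11 in 5 mM K+ and 2.48 times in 60 mM K+. This ratio, which no library scaling can alter, differed by 0.96 on the log2 scale (0.71 to 1.22), so the 2 relatives differed from each other by more than counting error. The pair was chosen after its values were seen.

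Klf9, a glucocorticoid- and thyroid hormone-responsive member, was the most abundant gene of the Sin3-binding group. It had 4946 reads (168 FPKM) in 5 mM K+ and 4320 reads (137 FPKM) in 60 mM K+, with a log2(fold-change) of -0.09 (-0.15 to -0.03). Its value with total counts was -0.30. Klf13, known as a regulator of the chemokine Ccl5 in lymphocytes, had 1366 reads (61.9 FPKM) and 1346 reads (56.7 FPKM). Its log2(fold-change) was 0.08 (-0.03 to 0.19) and turned to -0.13 with total counts. Of the genes of this group outside the 10, Klf16 had 185 and 164 reads and Klf14 had 2 and 0 reads. The share of summed KLF FPKM held by the Sin3-binding group was 25.1% in 5 mM K+ and 17.6% in 60 mM K+.

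Klf3, the CtBP-binding member known from adipocyte and B cell development, had 835 reads in 5 mM K+ and 900 in 60 mM K+, at 42.4 FPKM in both. The log2(fold-change) of Klf3 was 0.21 (0.07 to 0.35) with TMM and 0.00 with total counts. The other CtBP-binding genes had lower values in 60 mM K+. For Klf8 (91 and 51 reads) log2(fold-change) was -0.73 (-1.26 to -0.22), the furthest from 0 among KLF genes outside the 10 with at least 10 reads. For Klf12 (167 and 133 reads) it was -0.23, with an interval that included 0.

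Klf15, a regulator of amino acid catabolism and, in heart and smooth muscle, an opponent of hypertrophic and inflammatory genes, had 903 reads (39.1 FPKM) in 5 mM K+ and 850 reads (34.2 FPKM) in 60 mM K+. The log2(fold-change) of Klf15 was 0.01 (-0.12 to 0.15) and turned to -0.19 with total counts. Klf17 had 0 reads in both libraries. The related Sp factors, which bind the same GC boxes, differed little. Of 9 Sp genes, 4 had at least 10 reads and 0 were past the fold. Sp2 had the highest absolute log2(fold-change), 0.30, and the median over the 4 was 0.06, which total counts turned negative.

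**Figure D3:**
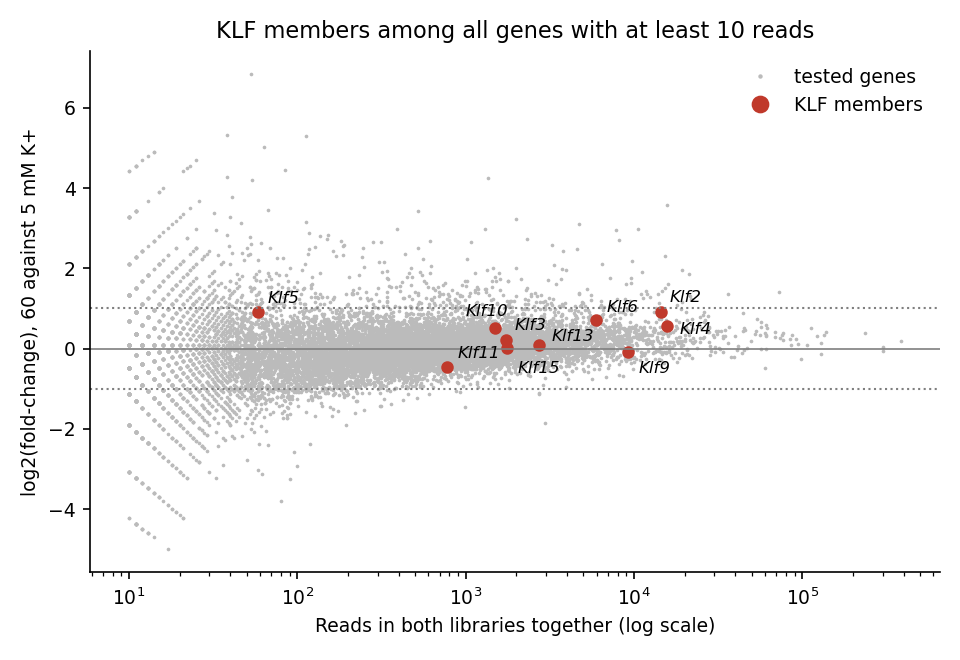
Each grey point is 1 of 14829 tested genes, with the reads of both libraries together on the x axis (log scale) and TMM-scaled log2(fold-change) of 60 mM K+ over 5 mM K+ on the y axis. Red points are the 10 KLF members and dotted lines mark 2-fold. All 10 lie between the dotted lines, and Klf5 lies among genes with few reads, where the spread is wide.

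Ratios between members do not depend on library scaling. Klf2, Klf6 and Klf4 were set beside Klf9 after their values were seen, so the direction of these ratios was fixed by that choice. The difference from Klf9 was not a division by co-factor group. Klf7 of the activator group had a log2(fold-change) of -0.38, below that of Klf9 (-0.09), and Klf10 of the Sin3-binding group had 0.51. The log2 ratio of Klf2 to Klf9 was higher by 1.00 (0.93 to 1.08) in 60 mM K+, that of Klf6 to Klf9 by 0.80 (0.70 to 0.89) and that of Klf4 to Klf9 by 0.66 (0.59 to 0.73). Klf2 and Klf4 also differed from each other, the log2 ratio of Klf2 to Klf4 being higher by 0.34 (0.28 to 0.41). Klf2 and Klf4 were also set beside each of the 7 endothelial markers, which themselves did not move together. Pecam1, Cdh5, Vwf, Tie1 and Egfl7 had log2(fold-change) values from 0.19 (Egfl7) to 0.83 (Cdh5), whereas Emcn was at -0.83, from 21 and 11 reads, and Kdr at -1.10. The log2 ratio of Klf2 to the marker had an interval above 0 for 6 of 7 markers, with a median of 0.63, and for Cdh5 it was 0.08 (-0.02 to 0.18). The log2 ratio of Klf4 to the marker had an interval above 0 for 5 of 7, with a median of 0.29. For Tie1 it was 0.08 (-0.01 to 0.17) and for Cdh5 -0.26 (-0.36 to -0.16). Beside the most abundant endothelial marker, Pecam1, the log2 ratio was higher by 0.41 (0.35 to 0.46) for Klf2 and by 0.06 (0.01 to 0.12) for Klf4.

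The summed levels of cell type markers are given beside the KLF values. The 6 smooth muscle markers summed to a CPM (reads relative to the TMM-scaled library size) of 35790 in 5 mM K+ and 39520 in 60 mM K+, the highest of the lists, with 0 of 6 past the fold. The 7 endothelial markers summed to 3111 and 4225, with 5 positive and 1, the VEGF receptor Kdr, past the fold (log2(fold-change) -1.10). The 6 fibroblast markers summed to 5909 and 5384, the macrophage markers to 29.6 and 22.5, the adipocyte markers to 125 and 105, with Lep past the fold higher (1 and 9 reads) and Plin1 (-2.39) and Adipoq (-1.04) lower, and the red blood cell markers to 80.6 and 51.2. The 6 pancreas markers had few reads, 124 in 5 mM K+ and 379 in 60 mM K+. Epithelial markers summed to at most 2.10, mesothelial markers to at most 0.38 and lymphocyte markers to at most 0.76, and Epcam, Cdh1 and Krt8 (epithelial) and Msln, Upk3b and Upk1b (mesothelial) had 0 reads in both libraries. The part of cell makeup in the KLF differences was not tested.

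The genes around the KLFs were described by lists, chosen with earlier results known and read against the 5.54% of tested genes past the fold higher, the 5.86% lower and the median of 0.00. Counting intervals lay above 0 for 25.0% of tested genes and below 0 for 20.3%. Intervals are narrower with more reads, so these 2 shares are not of like depth with the lists. In the pathway that drives Klf2 and Klf4, 0 of 11 ERK5 and MEF2 genes were past the fold, with a median log2(fold-change) of 0.08 that total counts turned to -0.13. Hdac5, a class IIa deacetylase that holds MEF2 in check, had the highest absolute value, 0.80, from 2760 reads in 5 mM K+ and 4480 in 60 mM K+. Of 11 tested glucocorticoid-responsive genes, 2 rose and 0 fell past the fold, with a median of 0.25. Counting intervals lay above 0 for 7 of the 11 and below 0 for 4. The genes past the fold were Nfkbia, the NF-kappaB inhibitor, with 2312 and 6610 reads (1.62 on the log2 scale, 1.55 to 1.69), and the metallothionein Mt1, at 1.23 (1.19 to 1.28). Both also respond to other signals.

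Klf9, Klf10 and Klf15 are known as clock-controlled genes, and their log2(fold-change) values were -0.09, 0.51 and 0.01. Of 15 clock genes, 1 rose and 2 fell past the fold, with a median of -0.27. Counting intervals lay above 0 for 5 of the 15 and below 0 for 8, against 25.0% and 20.3% of tested genes. The nuclear receptor Nr1d1 fell from 2361 to 606 reads, at -1.86 (-1.99 to -1.73) on the log2 scale, and the output factor Dbp fell from 1900 to 828 reads, at -1.10 (-1.22 to -0.98). The activator Arntl rose from 15 to 38 reads, at 1.44 with a wide interval of 0.55 to 2.41. The time of day at which each library was frozen is not given in the sources used here. Of 11 co-repressors, acetyltransferases, other partners and ubiquitin ligases that act on KLFs, 0 were past the fold and the median was 0.08 (-0.13 with total counts). Values ran from -0.28 for the acetyltransferase Ep300 to 0.29 for the ubiquitin ligase subunit Fbxw7, the highest absolute value.

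**Figure D4:**
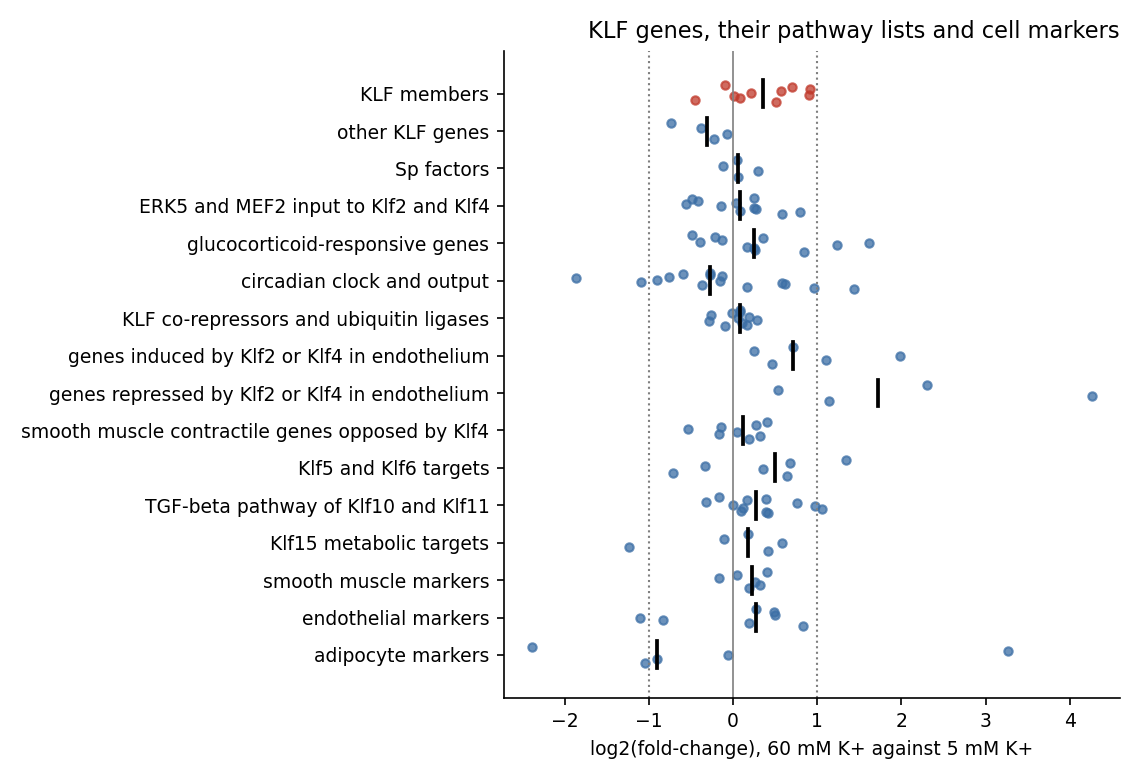
TMM-scaled log2(fold-change) of 60 mM K+ over 5 mM K+ for each gene with at least 10 reads (points) in the KLF lists, related pathway lists and 3 marker lists, with the list median (black bar). Dotted lines mark 2-fold. The genes repressed by Klf2 or Klf4 have the highest median, 1.72, and the 10 members (red) have a median of 0.36.

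Genes that Klf2 and Klf4 are known to induce in endothelium and genes that they are known to repress both had higher values in 60 mM K+. Of 5 tested induced genes, 2 rose and 0 fell past the fold, with a median log2(fold-change) of 0.72. The protein C receptor gene Procr rose from 798 to 2932 reads, at 1.98 (1.87 to 2.09), and Nos3, the endothelial nitric oxide synthase, rose from 1013 to 2025 reads, at 1.10 (0.99 to 1.21). Of 4 repressed genes, 3 rose and 0 fell past the fold, with a median of 1.72. The leukocyte adhesion molecules Sele and Vcam1 rose from 72 to 1288 reads (4.26, 3.92 to 4.63) and from 2740 to 12580 reads (2.30, 2.24 to 2.36), and the vasoconstrictor Edn1 rose from 594 to 1223 reads (1.14, 1.00 to 1.29). With total counts, Nos3 (0.89) and Edn1 (0.93) were no longer past the fold. These lists hold few genes. In the same library 5 of 7 endothelial markers had higher values and 2 lower ones, with a median of 0.28 (0.07 with total counts). By qPCR, the study found comparable gene induction by depolarization in arteries with the endothelium removed. It proposes that the induction it observed takes place mainly in vascular myocytes. Its listed primers include Sele and Vcam1 but none for Procr, Nos3, Edn1 or a KLF gene. The cell type behind the values given here was not tested.

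The contractile genes that Klf4 is known to oppose in smooth muscle were not past the fold in either direction (0 of 8). Their median log2(fold-change) was 0.12 with TMM and -0.09 with total counts. Myocd, the myocardin co-activator of serum response factor, had the highest absolute value, -0.53 (-0.67 to -0.39), from 1089 reads in 5 mM K+ and 704 in 60 mM K+. Of 6 Klf5 and Klf6 targets, 1 rose and 0 fell past the fold, with a median of 0.50. This was Plau, the urokinase gene, with 833 and 1973 reads, at 1.35 (1.23 to 1.46) on the log2 scale. Counting intervals lay above 0 for 4 of the 6 and below 0 for 2, against 25.0% and 20.3% of tested genes. The 2 below 0 were the cyclin Ccnd1 at -0.71 (-0.98 to -0.45) and the non-muscle myosin Myh10 at -0.34 (-0.52 to -0.16).

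For the TGF-beta pathway of Klf10 and Klf11, 1 of 12 genes rose and 0 fell past the fold, with a median of 0.28. Counting intervals lay above 0 for 7 of the 12 and below 0 for 2, against 25.0% and 20.3% of tested genes. Smad3, a signal transducer of the receptor, rose from 320 to 620 reads, at 1.06 (0.86 to 1.26), and was not past the fold with total counts (0.85). Of 5 tested metabolic targets of Klf15, 0 rose and 1 fell past the fold, with a median of 0.18 that total counts turned to -0.02. With TMM scaling, counting intervals lay above 0 for 3 of the 5 and below 0 for 1. Gpt, an alanine aminotransferase, had 38 and 15 reads, at -1.24 (-2.21 to -0.34) on the log2 scale.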

How the data were processed

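RNA from mesenteric arteries was poly(A)-selected, made into libraries with a NEBNext kit and sequenced for 1 control and 1 depolarized library. Reads were aligned to the mouse genome by the authors, who deposited raw read counts per gene and FPKM values. The submitters' processing notes name TopHat2 2.0.12, HTSeq 0.6.1, edgeR 3.0.8 and the builds mm8 and mm9. Neither the strand setting nor the annotation used for counting is stated in the sources used here, so reads of overlapping antisense genes cannot be told apart. Library totals were 10480918 reads (5 mM K+) and 11289598 reads (60 mM K+). For every gene with at least 5 reads in each library, the ratio of count to deposited FPKM differed 1.08-fold between libraries, as their totals did. FPKM was therefore relative to total counts.

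TMM factors (1.07 and 0.930) came from edgeR 4.0.16 (R 4.3.3). A log2(fold-change) is the ratio of TMM-scaled counts, with a count of 0 set to 0.5. Intervals are 95% Clopper-Pearson intervals of the share of a gene's reads in the depolarized library (scipy 1.17.1) and cover counting error only. The calculation was tested on simulated data. No count model was fitted as the main result, because each group had 1 library. Alternatives were scaling by median of ratios (DESeq2 1.42.0), upper quartile or total counts, other read minimums and fold thresholds, a recomputed random-sampling test, the exact test of edgeR at an assumed CV of 0.1, 0.2 or 0.4, and FPKM with pseudocounts of 0.1 and 1.

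The members and the 22 comparison lists were chosen with earlier results of these data known. Lists are described by counts and medians. Genes named from a pathway list are those past the fold, up to 4, or else the one with the highest absolute log2(fold-change). Ep300, Ccnd1, Myh10, the KLF genes outside the 10 and the pairs of genes set in ratios were named after their values were seen. Of 171 list genes, 170 were found, all but Klf18. Gene models are from GENCODE vM1 (NCBIM37), using the coding transcript with the longest 3′ UTR. Promoter windows are from RefSeq (GRCm38.p6). KLF proteins were not analysed here.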

Additional observations from a re-analysis of the deposited data

How the results depend on the processing

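The count of KLF members past the fold stayed at 0 higher and 0 lower under scaling by median of ratios, upper quartile or total counts. It was also 0 and 0 with both FPKM pseudocounts. The 5 stricter call rules only add to the same fold rule, so their 0 was fixed in advance. Both other read filters kept all 10 members and their values, so 0 was fixed there too. Lower thresholds gave calls: 3 higher and 0 lower at 1.5-fold and, in settings chosen after the data were seen, 6 higher and 2 lower by the counting interval and 2 higher (Klf2 and Klf5) and 1 lower (Klf11) at 1.5-fold with total counts. The median of the members, 0.36, was 0.15 with total counts, 0.15 with an FPKM pseudocount of 0.1 and 0.15 with one of 1. The contractile list median turned from 0.12 to -0.087 with total counts and to -0.087 with both FPKM pseudocounts.

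Over all tested genes, 822 were higher and 869 lower. Counts with no minimum were 3081 and 2491, with a q-value under 0.005 added 452 and 235, with the nearest interval end 263 and 73, and in edgeR's exact test 362 and 74, 68 and 8, and 0 and 0 for assumed coefficients of variation of 0.1, 0.2 and 0.4. They were 1761 and 1939 at 1.5-fold, 3703 and 3016 by the counting interval, 212 and 8 with at least 500 reads, 497 and 1037 with an FPKM pseudocount of 0.1, 240 and 193 with one of 1, and 1156 and 3235 at 1.5-fold with total counts. Total counts gave 601 and 1285 and moved the share of calls that were higher from 48.6% to 31.9%. With vM1 transcript lengths, 6 and 2 of 10 members kept their place in the order of levels in 5 mM K+ and 60 mM K+. The causes were not tested. Of 70 values, those of 14 KLF genes under 5 settings (3 other scalings and FPKM with 2 pseudocounts), 46 lay within the counting interval of the gene, and 2 genes, Klf13 and Klf15, changed sign.

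No paired analysis was possible because there was 1 library in each group, so leaving out a replicate was not possible either. Precision is limited by depth for Klf5 and, among the other KLF genes, Klf8 and Klf12, and differences between animals are not measured.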

Other observations

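The 3′ UTRs of the KLF genes differed in their number of ATTTA pentamers, the core of AU-rich elements known from short-lived mRNAs. In GENCODE vM1, Klf6 held 7 copies in a 3′ UTR of 3110 bases (2.25 per kb), Klf10 held 4 in 1492 bases (2.68 per kb) and Klf9 held 5 in 1999 bases (2.50 per kb). Klf11 held 4, Klf13 held 3, Klf3 and Klf15 held 2 each, Klf2 held 1 in 737 bases (1.36 per kb), Klf4 held 1 in 984 bases (1.02 per kb), and Klf5 held 0 in a 3′ UTR of 76 bases. The vM1 model of Klf5 was 1.72 kb long, against 3.10 kb behind its FPKM. Its 3′ UTR was also below the minimum of 100 bases used next, so its 0 says little about the gene. Over 12450 genes with at least 10 reads and a 3′ UTR of at least 100 bases, the median was 2 copies and 1.26 per kb. Per kb, Klf2 was thus close to the median gene.

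The pancreas markers, fixed as a check of tissue carried over with the artery, had 3 of 4 tested genes past the fold, Pnlip (2 and 61 reads), Cela2a (3 and 51 reads) and Ctrb1 (21 and 129 reads), and a median log2(fold-change) of 3.46. The red blood cell markers went the other way, from 908 to 538 reads, with 0 of 5 past the fold.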
